A study of Rattus norvegicus with 12 samples.

Results

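The CD3-positive T cells of the rat liver were read from 6 libraries of dissociated cells. A cell was chosen, and is called a CD3 cell below, when it held at least 2 unique molecular identifiers (UMIs, 1 per captured transcript) of Cd3e, Cd3d and Cd3g together. It also had to hold fewer than 5 UMIs over 7 genes of natural killer (NK) cells (Nkg7, Gzma, Gzmm, Prf1, Xcl1, Klrb1a and Klrd1) and no UMI of the B cell genes Cd79b and Ms4a1. Members were thus chosen by the UMI counts of these 12 genes in each cell. This rule chose 273 of 25659 kept cells, 9, 14, 30 and 28 from total liver homogenate (TLH) and 109 and 83 from immune-enriched preparations. The TLH libraries came from 2 Dark Agouti (DA) and 2 Lewis (LEW) rats, and the immune-enriched ones from 1 DA and 1 LEW rat. All rats were healthy males on a standard diet, with no agent or allele that set the groups apart other than strain. The series text gives the TLH rats' age as 8 to 10 weeks, while the study's methods give an older one. TLH was sequenced with version 2 and the immune-enriched samples with version 3 of the 3′ chemistry, and only the latter were washed further, depleted of red blood cells and cleared of parenchymal cells by centrifugation. Preparation, chemistry and depth therefore cannot be told apart.

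T cells recognise peptides on MHC molecules through an antigen receptor whose signal passes through the CD3 chains (Cd3e, Cd3d, Cd3g) and the zeta chain Cd247 to the kinases Lck and Zap70 and the adaptor Lat. CD4 T cells read MHC class II and mostly give help, and CD8 T cells read MHC class I and can kill. Naive cells recirculate through blood and lymph nodes with Lef1, Tcf7 and Il7r switched on, while effector and memory cells carry chemokines, granzymes and receptors such as Cxcr3. The liver holds both passing and resident T cells beside many NK cells, which share part of the signalling and killing machinery with T cells.

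The libraries held 61441846 to 92484173 UMIs in TLH and 48255870 and 60005133 in the immune-enriched samples. The median CD3 cell held 2232, 2769, 2735 and 2624.5 UMIs in TLH_DA 1, TLH_DA 2, TLH_LEW 1 and TLH_LEW 2, 4236 in immune_DA and 4456 in immune_LEW. NK cells of the immune-enriched libraries had medians of 4066.5 and 4117 UMIs and B cells of 2776 and 2780, against 4077.5 and 4392.5 for the T cells without Siglech described below. Lower shares in B cells thus stand beside a lower depth. The deposited counts carry no gene names for these libraries, and names were taken by row from the gene list of the nuclei.

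The 3 CD3 genes lie together on rat chromosome 8, with Cd3g and Cd3d transcribed away from each other from start sites 1601 bases apart. Their promoters (250 bases before to 50 after the start site, from RefSeq, build GRCr8) are shown because some members carried Cd3g without the other 2 genes. Capitals mark the E-box CANNTG, the target of E proteins such as Tcf4, searched on both strands. The coordinates are chr8:54183869-54184168 on the minus strand for Cd3g, chr8:54185269-54185568 on the plus strand for Cd3d and chr8:54211721-54212020 on the minus strand for Cd3e.
Cd3g: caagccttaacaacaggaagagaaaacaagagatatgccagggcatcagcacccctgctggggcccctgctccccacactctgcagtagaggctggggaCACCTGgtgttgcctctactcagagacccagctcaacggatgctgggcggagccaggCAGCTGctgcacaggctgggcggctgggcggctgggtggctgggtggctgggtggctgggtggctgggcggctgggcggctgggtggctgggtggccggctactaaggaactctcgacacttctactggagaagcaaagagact
Cd3d: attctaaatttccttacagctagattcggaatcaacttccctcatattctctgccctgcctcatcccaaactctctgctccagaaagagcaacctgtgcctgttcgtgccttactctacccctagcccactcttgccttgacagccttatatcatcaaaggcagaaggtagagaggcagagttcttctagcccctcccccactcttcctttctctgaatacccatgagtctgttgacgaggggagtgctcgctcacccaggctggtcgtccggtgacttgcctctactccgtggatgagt
Cd3e: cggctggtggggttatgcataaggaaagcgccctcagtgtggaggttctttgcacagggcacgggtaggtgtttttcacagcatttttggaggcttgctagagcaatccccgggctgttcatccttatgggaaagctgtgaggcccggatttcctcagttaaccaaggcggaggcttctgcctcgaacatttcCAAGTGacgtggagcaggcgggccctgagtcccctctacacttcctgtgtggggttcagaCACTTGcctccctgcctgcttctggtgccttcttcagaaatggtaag
The Cd3g and Cd3e windows each held 2 E-boxes and the Cd3d window held none, and 72.1% of 33469 promoters of that length held at least 1. The Cd3d window held the ETS letters GGAAGT and the TCF/LEF letters CTTTGA once each, and the Cd3e window held GGAAGT once. These letters were in 22.6% and 16.1% of all promoters. The GATA letters AGATAA and the RUNX letters TGTGGT were in none of the 3 windows, against 11.6% and 17.3% of all promoters.

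The label held for most members but not for all. Of the 273, 18 carried a UMI of Siglech, a surface receptor known from plasmacytoid dendritic cells, with 1 in TLH_DA 2, 1 in TLH_LEW 1, 9 in immune_DA and 7 in immune_LEW. Every one of these 18 owed its place to Cd3g, with 59 Cd3g UMIs and 0 UMIs of Cd3e or Cd3d. None held a UMI of Lef1, Lck or Cd247. Among the 16 from immune-enriched libraries, Irf8, Cd74, Ighm, Fcrla, Tyrobp, Gapt and Cyb561a3 were each found in 100% of cells, Tcf4 in 87.5% and Ptcra in 81.2%. In the other 176 immune-enriched members these shares were 1.70% for Irf8, 3.98% for Tcf4 and 0 cells for Ptcra and Gapt. The Siglech-positive members were also deep, with median UMI counts of 7379 in immune_DA and 7353 in immune_LEW against 4236 and 4456 for all members there. They are therefore named by their leading genes and not as T cells. Below, CD3 cells are all 273 members, T cells are named only where the Siglech-positive ones were left out, and the counts of calls and the values that moved are given both ways. Of the named genes called against NK and against B cells that could be tested again, 30 of 31 and 25 of 25 kept their call without them.

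Siglech-rich cells that the rule had not chosen, with fewer than 2 CD3 UMIs, also held Cd3g alone. At 3 or more Siglech UMIs there were 37 such cells in the immune-enriched and 14 in the TLH libraries, and 12 and 4 of them held 1 CD3 UMI, each time Cd3g. Among kept cells without Siglech that held 1 CD3 UMI, 12 and 62 in number, Cd3g supplied 6 and 27.

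The 255 members without Siglech carried the CD3 genes together. In immune_DA, Cd3e, Cd3d and Cd3g were found in 98, 93 and 95 of 100 cells, and 88 cells held all 3. In immune_LEW they were found in 73, 69 and 74 of 76 cells, and 64 held all 3. In TLH, at a lower depth, 24 of 79 cells held all 3 genes, 41 held 2 and 14 held 1. These values describe the rule and support nothing.

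Lef1, the remaining marker given for these cells, was not part of the rule. Its UMIs in the members numbered 1 in TLH_DA 1, 0 in TLH_DA 2, 9 in TLH_LEW 1, 4 in TLH_LEW 2, 176 in immune_DA and 131 in immune_LEW. It was found in 76.7% of the immune-enriched and 13.9% of the TLH members without Siglech, against 1.01% and 4.46% of NK and B cells in the immune-enriched libraries. Kept barcodes without a UMI of the leukocyte genes Ptprc, Ptprcap and Coro1a, other liver cells among them, in which free RNA and the cells' own RNA cannot be told apart, held Lef1 in 0.107% there and 0.0395% in TLH. At least 1 of those 3 leukocyte genes was present in 176 of 176 immune-enriched and 72 of 79 TLH members without Siglech. Hepatocyte transcripts made up 5.05% to 7.80% of the members' UMIs in the TLH libraries, 0.110% in immune_DA and 1.14% in immune_LEW. The 12 genes of that list made up 9.44% to 10.8% of the UMIs of TLH barcodes without leukocyte genes. All 12 were detected in the members of each of the 6 libraries.

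The limits of the rule fell unevenly on the 2 preparations. In the immune-enriched libraries 113 of 192 members held 8 or more CD3 UMIs, and 80.5% of these had Lef1. Just inside the limit, with 2 CD3 UMIs, were 8 cells, 5 of them with Siglech and 1 with Lef1. Just outside, with 1 CD3 UMI, were 23 cells, 14 with Siglech and 1 with Lef1. In TLH 25 members held 2 CD3 UMIs, and 71 cells just outside held 1, with Lef1 in 8% and 8.45% of them and Ptprc in 24% and 14.1%. With 4 UMIs of the NK genes 1 member stood inside in each preparation, and 3 cells with 5 stood outside in each. The B cell limit removed 1 cell in TLH and 3 in the immune-enriched libraries.

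**Figure D1:**
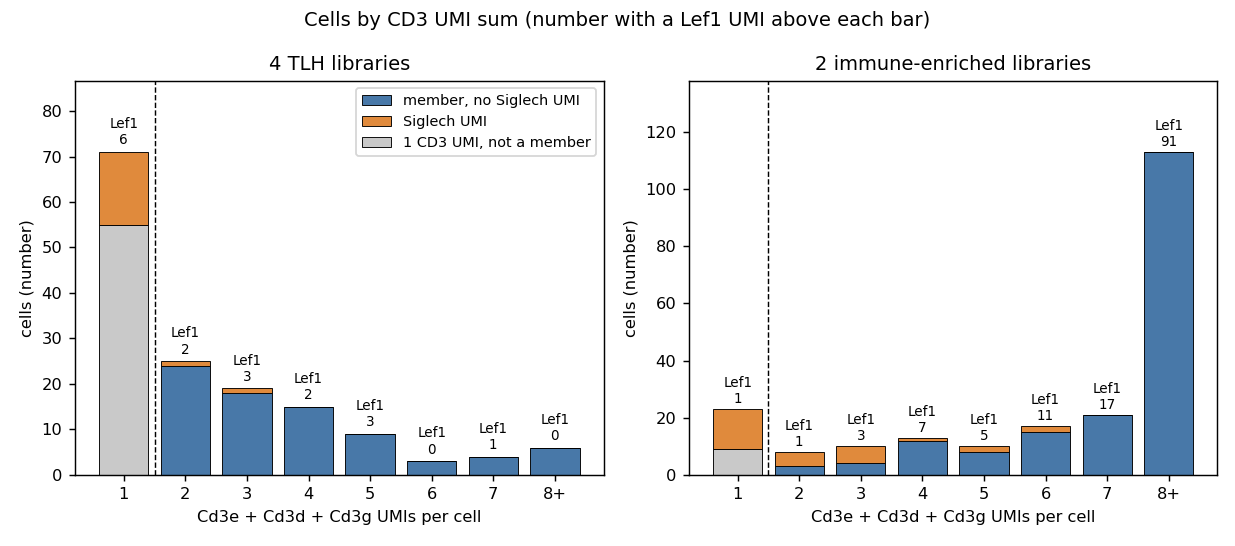
Number of cells (y axis) by the summed UMIs of Cd3e, Cd3d and Cd3g (x axis, 8+ for 8 or more) in the TLH and the immune-enriched libraries. Blue bars are members without and orange parts are cells with a Siglech UMI, grey marks cells with 1 CD3 UMI that the rule left out, and the number above each bar counts cells with Lef1. In the immune-enriched libraries the 113 members at 8 or more held no Siglech and 91 held Lef1, while 11 of the 18 cells with 2 or 3 CD3 UMIs held Siglech.

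CD3 cells made up 0.383%, 0.138%, 0.550% and 0.728% of kept cells in TLH_DA 1, TLH_DA 2, TLH_LEW 1 and TLH_LEW 2. Their exact (Clopper-Pearson) 95% intervals were 0.175% to 0.725%, 0.0753% to 0.231%, 0.371% to 0.784% and 0.485% to 1.05%, and such intervals cover counting error only. Both LEW rats stood above both DA rats at this cell filter, with means of 0.639% ± 0.126 (SD, n = 2) and 0.260% ± 0.173 (SD, n = 2). The two-sided exact permutation p was 0.333, the smallest that 2 rats against 2 allow. The order depended on the cell filter. At the limits the study's methods state for each library, among them 1500 UMIs for TLH_DA 1 and both LEW rats, TLH_LEW 1 stood at 0.313% and TLH_DA 1 at 0.332%, and the difference was 0.159 points in place of 0.379. These limits kept 12124 and 7857 LEW cells, more than the study kept, against 5457 and 3844 here. With the stated limits for DA alone and 2000 UMIs for LEW, which leave the study's number of cells in all 4 libraries, both LEW rats stood above both DA rats, by 0.375 points. The immune-enriched pair had the opposite order, 9.37% (7.76% to 11.2%) in DA and 3.1% (2.48% to 3.83%) in LEW, with 1 rat of each strain. Without the Siglech-positive members these shares were 8.6% and 2.84%, and the TLH difference was again 0.375 points. Shares of a dissociated and enriched sample also depend on what else was recovered, which was not tested.

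Against NK cells of the same libraries, the CD3 cells had higher levels of naive and recirculating T cell genes and lower levels of effector genes. NK cells were cells with at least 5 UMIs over the 7 NK genes, fewer than 2 CD3 UMIs and no B cell gene, 474 in all. UMIs were summed per library and class and compared with the quasi-likelihood test of edgeR, with the library as a block, in the 5 libraries with at least 10 cells of both classes. The 12 genes of the rule were left out. Of 4537 genes tested 469 (10.3%) passed an adjusted p of 0.05, 255 (5.62%) higher and 214 (4.72%) lower in CD3 cells. The median log2 fold change over all genes was -0.01. The p-values weigh the size of a class difference against the variation left between library sums in the fit, estimated with help from other genes.

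Of the 10 naive and recirculating genes tested, 6 were higher in CD3 cells, among them Bach2, Dgka, Il7r, Lef1 and Satb1, 1 was lower (Txk) and the median log2 fold change was 2.71. Lef1, a transcription factor of early and naive T cells, had 0, 101, 51, 462 and 421 CPM (counts per library scaled to a common total) in the CD3 cells of TLH_DA 2, TLH_LEW 1, TLH_LEW 2, immune_DA and immune_LEW. In the NK cells of these libraries Lef1 had 0, 0, 7, 0 and 6. CD3 cells stood above NK cells in 4 of 5 libraries, and TLH_DA 2 had no Lef1 UMI in either class. Summed over libraries, 320 UMIs stood against 3, a ratio of 149 (counting interval 50.6 to 727), and the fitted log2 fold change was 6.70 ± 0.49 (SE, edgeR adjusted p = 1.43e-17). The chromatin organiser Satb1 had 57, 34, 38, 234 and 206 CPM in CD3 cells and 20, 4, 0, 34 and 20 in NK cells. Satb1 was higher in CD3 cells in every library, by 2.98 ± 0.37 (SE, edgeR adjusted p = 6.66e-10) on the log2 scale, and the lipid kinase Dgka by 3.29 ± 0.48, also in 5 of 5. Il7r, the receptor for the survival cytokine interleukin 7, was seen in the immune-enriched members alone, with 57 UMIs against 2 in NK cells, a ratio of 39.9 (10.5 to 337). Without the Siglech-positive members 8 of 11 were higher, Tcf7 and Il4r joining the 6, and 1 was lower. The rule left out CD3 cells with 5 or more NK-gene UMIs, so the naive list is not independent of how members were chosen. In the immune-enriched libraries Lef1 was in 62.2% and 83.1% of members with 0 and 1 such UMIs. It was in 33.3%, 66.7% and 35% of the 3, 3 and 20 cells left out at 5, 6 and 7 or more.

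The lineage factor Bcl11b was higher as well, by 2.71 ± 0.46 (SE, edgeR adjusted p = 9.89e-06), with 0, 45, 51, 147 and 141 CPM in CD3 cells and 16, 0, 7, 27 and 14 in NK cells. In TLH_DA 2 Bcl11b thus had the opposite order. Of the 11 T-lineage transcription factors tested 4 were higher (Bach2, Bcl11b, Lef1 and Satb1) and 2 were lower, Runx3, a factor of killer lymphocytes, and Ikzf3.

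The effector and memory list went the other way. None of its 14 tested genes was higher in CD3 cells and 10 were lower (Ccl4, Ccl5, Cxcr6, Gzmk, Id2, Il2rb, Itga1, Klrk1, Rgs1 and Tbx21), with a median log2 fold change of -3.0. The rule kept out cells with many UMIs of other killer genes, so this list is not independent of how the members were chosen. Ccl5, a chemokine of activated killer lymphocytes, had 96, 214, 487, 3 and 13 CPM in CD3 cells and 8492, 15264, 18157, 51866 and 31457 in NK cells. CD3 cells were lower by 7.91 ± 1.21 (SE, edgeR adjusted p = 0.00406) on the log2 scale. In CD3 cells the Ccl5 level was higher in each of the 3 TLH libraries than in either immune-enriched one. Tbx21 (T-bet, the factor of type 1 effector lymphocytes) had 0 UMIs in CD3 cells of all 5 libraries and 307 in NK cells, at least 73.2-fold higher in NK cells against a floor of 3 UMIs over the class. Ncr1 and Klrc3, receptors of NK cells, and Gzmbl2 were at 0 as well, at least 92.7-fold, 107-fold and 167-fold higher in NK cells. Id2, which NK cells need, was lower in CD3 cells in 5 of 5 libraries, by 3.14 ± 0.52 (SE, edgeR adjusted p = 0.00264).

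Of 10 receptor signalling genes tested, 5 were higher in CD3 cells, among them Lat, Prkcq, Skap1 and Trat1, 1 was lower (Zap70) and the median log2 fold change was 0.62. Lck differed by 0.29 ± 0.24 (edgeR adjusted p = 0.659) and Cd247 by 0.40 ± 0.27 (edgeR adjusted p = 0.515), so neither passed. Lck was found in 68.2% of immune-enriched members without Siglech and 65.3% of NK cells. Trat1, an adaptor that stabilises the receptor complex, separated the classes more, with 91 UMIs in CD3 cells and 3 in NK cells and a ratio of 42.4 (14.1 to 209). Sit1, a regulator of receptor signalling, stood at 100 UMIs against 3, a ratio of 46.6 (15.5 to 230). The constant genes of the antigen receptor were not read here.

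Of 9 surface molecules tested 4 were higher in CD3 cells (Cd27, Cd40lg, Slamf6 and Tnfrsf14) and 2 were lower (Cd7 and Cd96). Cd40lg, the ligand by which helper T cells activate B cells, had 38, 22, 115, 176 and 196 CPM in CD3 cells and 0 in NK cells of every library. With 141 UMIs against 0, Cd40lg was at least 65.7-fold higher in CD3 cells. It was found in 40.3% of immune-enriched members without Siglech and in no NK cell, B cell or barcode without leukocyte genes there. The costimulatory receptor Cd27 was higher by 2.62 ± 0.36 (SE, edgeR adjusted p = 1.98e-08), in 55.1% against 7.04% of cells. Of 6 GIMAP genes, a family of lymphocyte GTPases, Gimap4 and Gimap9 were higher, by 1.15 ± 0.29 and 2.65 ± 0.38. The lymphocyte gene Plac8 was higher in CD3 cells in 5 of 5 libraries, by 3.31 ± 0.21 (SE, edgeR adjusted p = 2.79e-22). None of 12 hepatocyte markers passed.

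Some calls against NK cells rested on part of the data. Without the Siglech-positive members 489 genes passed, 425 of them shared with the 469. The dendritic-cell markers Siglech and Irf8 and the B cell marker Fcrla lost their place among the higher genes. Irf8 went from 1.34 ± 0.37 to -4.30 ± 0.56 (edgeR adjusted p = 2.28e-09), and AABR07060872.1, one of the 10 largest rises, went to 1.25 ± 1.81 (edgeR adjusted p = 0.863). With these members kept, AABR07060872.1 did not pass without TLH_DA 2, TLH_LEW 1 or immune_DA. The number of higher genes fell from 255 to 106 without TLH_LEW 1 and to 121 without TLH_LEW 2. Ribosomal protein genes, a group chosen after its values were seen, supplied 68 of the 255, with a median log2 fold change of 0.82 over 76 genes. Only 11 and 3 of them passed without these libraries, at medians of 0.67 and 0.62. In all 265 genes passed without immune_LEW, 290 without immune_DA and 258 with DESeq2 in place of edgeR. Cd40lg, Ncr1, Tbx21, Klrc3, Il7r, Cd8b, Lat and Skap1, several of them at or near 0 UMIs in a class, did not pass with DESeq2. Lat, called in the full set, did not pass either without TLH_LEW 1, TLH_LEW 2 or immune_LEW, Skap1 without TLH_LEW 1 or immune_LEW, and Id2 without immune_LEW. Lat and Skap1 also missed the threshold at 3 or more CD3 UMIs and in the immune-enriched libraries alone.

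Against B cells, the receptor signalling genes set the CD3 cells apart. B cells were cells with at least 2 UMIs of Cd79b and Ms4a1 together, 145 in all, and 4 libraries held at least 10. This comparison came from the same fit and shares the CD3 cell sums with the one above. Of 4537 genes 307 (6.77%) passed in edgeR, 165 (3.64%) higher and 142 (3.13%) lower in CD3 cells, at a median log2 fold change of 0.05 over all genes. All 10 signalling genes tested were higher, with a median of 6.44, among them Lck, Cd247, Zap70 and Lcp2. Lat had 38, 124, 273 and 299 CPM in the CD3 cells of TLH_DA 2, TLH_LEW 1, immune_DA and immune_LEW and 0 in B cells of all 4, at least 28.3-fold higher. Skap1, an adaptor of T cell adhesion, had 96, 90, 239 and 293 CPM in CD3 cells and 0 in B cells, at least 26.3-fold higher. Lck had 38, 202, 313 and 331 in CD3 cells and 0, 0, 18 and 13 in B cells, and was higher by 4.33 ± 0.47 (SE, edgeR adjusted p = 2.18e-11).

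Of the surface list's 9 tested genes 7 were higher than in B cells (Cd2, Cd6, Cd7, Cd27, Cd40lg, Cd96 and Tnfrsf14). So were 4 of 11 transcription factors (Bcl11b, Gata3, Lef1 and Satb1) and 5 of 6 GIMAP genes. Lef1 was higher by 4.59 ± 0.52 (SE, edgeR adjusted p = 3.22e-10), with 316 UMIs against 5. Satb1 was higher by 2.18 ± 0.43 (SE, edgeR adjusted p = 0.000133) and was found in 52.3% of immune-enriched T cells without Siglech and 13.4% of B cells. Of the naive list 4 of 10 genes were higher than in B cells, with a median log2 fold change of 0.67.

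All 7 B cell markers tested were lower in CD3 cells. Ebf1, Cr2 and Fcer2, a lineage factor, a complement receptor and an IgE receptor of B cells, had 78, 64 and 64 UMIs in B cells and 0 in CD3 cells, at least 64.3-fold, 52.7-fold and 52.7-fold higher in B cells. Of 8 MHC genes tested, 3 of class II (Cd74, RT1-Bb and RT1-Da) were lower, 1 was higher and 4 did not pass, RT1-Ba and RT1-Db1 of class II among them. The class I light chain B2m was higher by 0.69 ± 0.21 (SE, edgeR adjusted p = 0.0255). Without the Siglech-positive members 336 genes passed, 267 of them shared with the 307. LOC24906 and Siglech left the 10 largest rises, and Cd44 and RT1-Bb no longer passed, RT1-Bb at a larger fold than before (-4.48 ± 1.1 after -2.96 ± 0.60). In all 147 genes passed without immune_DA, 160 without immune_LEW and 157 with DESeq2. Cd40lg, Ebf1, Fcer2 and Cr2, each at 0 UMIs in a class, did not pass with DESeq2. The largest rises that stayed include 2 without a common symbol, AABR07017902.1 and AC109737.1, with 363 and 372 UMIs against 0, at least 49.0-fold and 50.2-fold higher in CD3 cells.

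**Figure D2:**
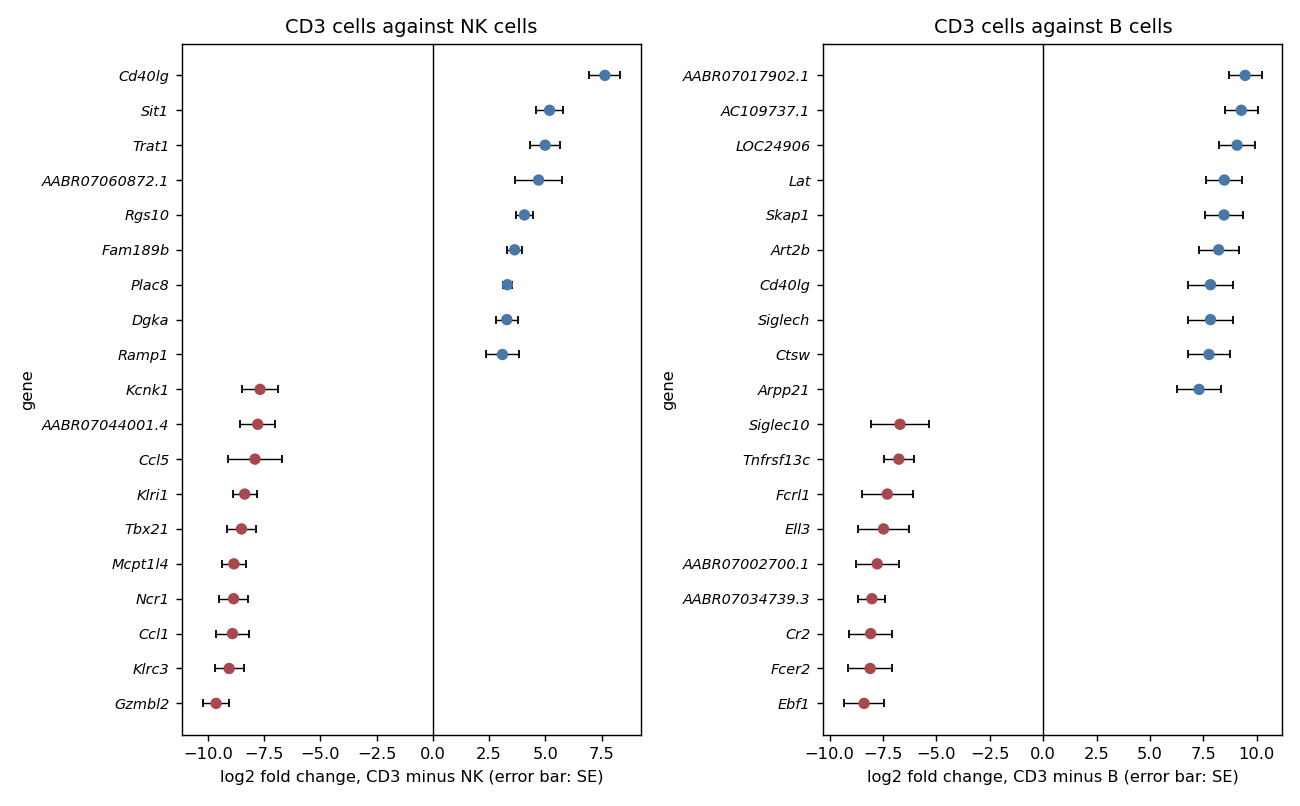
Fitted log2 fold change (x axis) of genes among the 10 largest rises and falls with the same direction in every library (y axis), CD3 cells against NK cells on the left and against B cells on the right, with SE bars. Cd40lg stood at 7.65 against NK cells and 7.84 against B cells, and fitted values of genes with 0 UMIs in a class depend on the prior count.

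A CD8 gene gave a UMI in more CD3 cells than Cd4 did. The helper gene Cd40lg, described above, was found in a larger share of immune-enriched members without Siglech than Cd8a, Cd8b or Cd4. The proportion of CD4 to CD8 cells was not determined. In the 6 libraries in the order given first, Cd8a or Cd8b without Cd4 was found in 1, 2, 9, 6, 27 and 23 members and Cd4 alone in 0, 0, 0, 0, 10 and 7. Members with neither numbered 8, 12, 21, 22, 69 and 53, and 3 in immune_DA held both. Of the 20 immune-enriched members with Cd4, 9 were Siglech-positive. Without these, Cd4 was in 7 of 100 cells of immune_DA and 4 of 76 of immune_LEW, together 6.25%, against 1.01% of NK cells, 0.893% of B cells and 56.2% of the Siglech-positive members. In TLH 0 of 79 members had Cd4, which allows a share of cells with a Cd4 UMI of up to 3.80% and sets no limit on cells that express it.

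Cd8b, the chain that marks the CD8 co-receptor of conventional killer T cells, was found in 20.0% and 23.7% of members without Siglech in immune_DA and immune_LEW and in 0 of 199 NK cells. Cd8a was in 28.4% of these members and in 88.4% of NK cells. Cd8b had 84 UMIs in CD3 cells of the 5 libraries compared and 1 in NK cells, and was higher in CD3 cells (5.83 ± 0.79, SE, edgeR adjusted p = 1.66e-08), while Cd8a was lower (-1.32 ± 0.31, SE, edgeR adjusted p = 0.00709). Of the 50 immune-enriched members without Siglech that held a CD8 gene, 38 held both chains and 12 held Cd8a alone. Of the 18 such members in TLH, 7 held both and 11 held Cd8a alone. The share of these 176 members with neither co-receptor was 65.9%, and at this depth a cell without a UMI may still express the gene.

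A comparison of Cd4 with CD8 cells could not be made as planned, since immune_DA alone had at least 10 cells of each. With both immune-enriched libraries and at least 4 cells of each, a choice made after seeing the data, 257 of 1092 genes passed in edgeR on 1 residual degree of freedom. Cyb561a3, Ctsz, Blnk and Fcrla were among the 10 genes with the smallest p. Without the Siglech-positive members, which left 6 and 4 Cd4 cells in place of 10 and 7, fewer genes could be tested and 12 of 721 passed.

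Genes of other T cell subsets, Mki67 and the naive gene Ccr7 gave UMIs in few cells. In the 176 immune-enriched members without Siglech, Foxp3, the factor of regulatory T cells, was in 3.98%, Il2ra in 3.41% and Ctla4 in 2.27%, and Il2ra was in 19.1% of NK cells. Il17a, a cytokine of type 17 T cells, had a UMI in 0 cells, which allows a share with a UMI of up to 1.70%. Mki67, a marker of dividing cells, was in 2.27%. Ccr7, a lymph-node homing receptor of the naive and recirculating list, was in 2.84%.

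**Figure D3:**
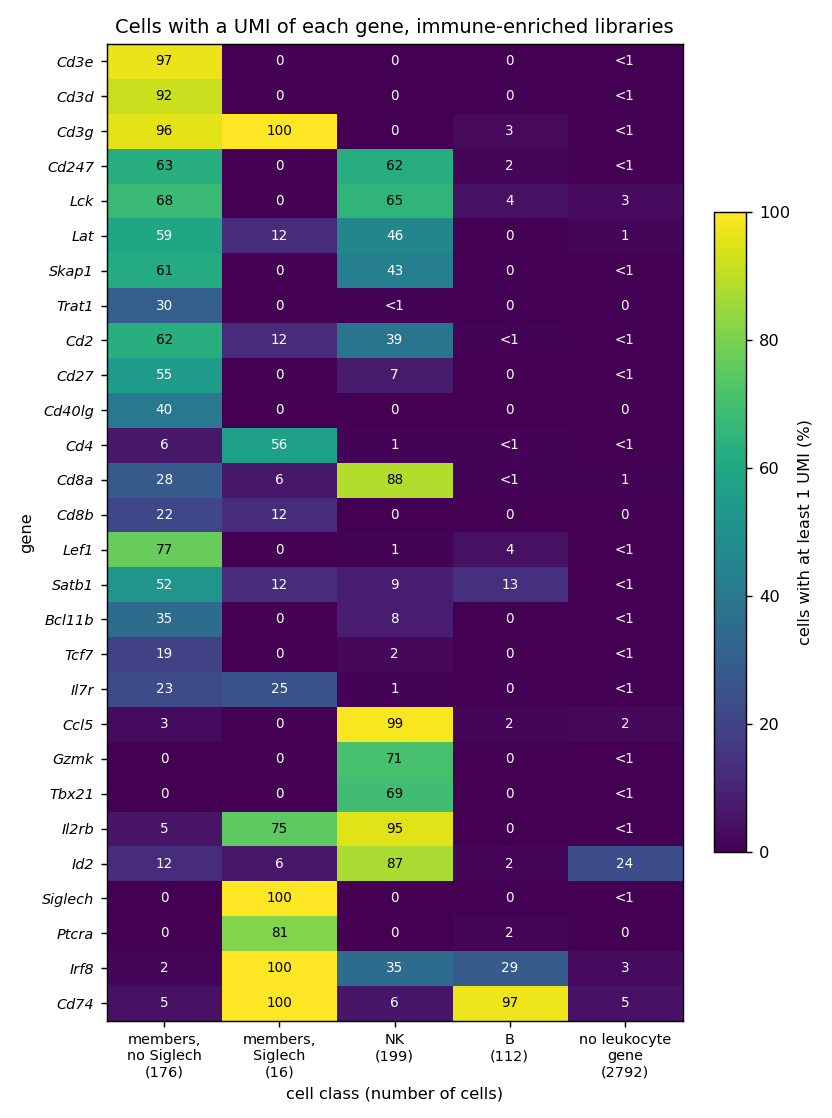
Percent of cells with at least 1 UMI of each gene (rows) in the 2 immune-enriched libraries together, for members without and with Siglech, NK cells, B cells and barcodes without leukocyte genes (columns, cell numbers in brackets). Lef1 was in 77% of members without Siglech and in none with it, while Ccl5, Tbx21 and Gzmk were in 99%, 69% and 71% of NK cells.

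Members with and without Lef1 were compared within each immune-enriched library, leaving out Siglech-positive cells. In immune_DA 80 held Lef1 and 20 did not, and in immune_LEW 55 and 21. Satb1 was in 57.5% against 40% of them in DA and in 60% against 23.8% in LEW. Cd8b was in 23.8% against 5.00% and in 29.1% against 9.52%, whereas Cd4 was in 5.00% against 15.0% and in 0% against 19.0%. S100a4, a calcium-binding protein of memory T cells, was in 3.75% against 15.0% and in 5.45% against 19.0%. Lck was in 62.5% against 60% in DA and in 78.2% against 71.4% in LEW. The cells with Lef1 were deeper, at medians of 4171.5 against 3728.5 UMIs in DA and 4393 against 4135 in LEW. Thinned to 1000 UMIs, Satb1 was in 18.8% against 15.0% and in 14.5% against 14.3%, Cd8b in 10.0% against 0% and in 9.09% against 9.52%, and Lck in 22.5% against 30% and in 21.8% against 33.3%, so the order of the Cd8b share in LEW and of the Lck share in both did not hold at equal depth. Cd4 stood at 1.25% against 10.0% and at 0% against 4.76%, and S100a4 at 1.25% against 5.00% and at 3.64% against 14.3%. These are cells of 1 rat per strain and carry no test.

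Cells that held both CD3 and at least 5 NK-gene UMIs lay outside the rule and numbered 1, 2, 3, 7, 11 and 15. Of the 26 in immune-enriched libraries, 21 had Cd8a, 12 Cd8b, 13 Ccl5, 10 Gzmk and 10 Lef1. Members without Siglech had Ccl5 in 5 and Gzmk in 0 of 176 cells. The 2 sets were split by their killer-gene UMIs, so these shares are not independent of the limit. The cells outside were also deeper, at medians of 4833 and 5271 UMIs in immune_DA and immune_LEW against 4077.5 and 4392.5. Doublets were not removed, and their part in these cells was not tested.

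Members of the 2 preparations were set side by side at equal depth, each cell thinned to 1000 UMIs and Siglech-positive members left out. Thinning set the total of UMIs equal, not the UMIs of lymphocyte genes. All 12 hepatocyte markers were found in a larger share of the TLH members. The part of such transcripts in the lower TLH shares below was not tested. Of 14 naive and recirculating genes 12 were found in a larger share of immune-enriched members and 1, Il6st, in a larger share of TLH members. The 13 receptor signalling genes measured were all found in a larger share of the immune-enriched members. In NK cells this held for 11 of these 13 and for 6 of the 14 naive genes, with 0 and 3 in a larger share in TLH, and in barcodes without leukocyte genes for 7 of 13 and 10 of 14. Lef1 was in 30.1% of immune-enriched and 5.06% of TLH members, and Satb1 in 16.5% and 2.53%. In the effector and memory list 9 of 20 genes were found in a larger share of TLH members and 4 in a larger share of immune-enriched ones. Members had to hold fewer than 5 NK-gene UMIs before thinning, and TLH members were less deep. These shares are thus not independent of the rule, and its part was not tested. S100a4 was in 12.7% of TLH and 3.98% of immune-enriched members, Cxcr3 in 8.86% and 0.568%, and Ccl5 in 8.86% and 1.14%. Cd8a was close, at 15.2% and 19.3%.

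In NK cells of the same libraries the effector list went the other way, with 17 of 20 genes found in a larger share of cells in the immune-enriched libraries. In barcodes without leukocyte genes 12 of 20 were found in a larger share in TLH, and Ccl5 was in 1.74% of those barcodes after thinning against 0.466% in the immune-enriched libraries. Ccl4, Ccl5, Cxcr3, Gzmk, Itgae, Rgs1 and S100a4 were higher in TLH both in the members and in these barcodes. Of 17 NK-cell markers, 8 were found in a larger share of TLH members and 4 in a larger share of immune-enriched members. The list includes the 7 NK genes of the rule, so these counts are not independent of how members were chosen. Gzma, Gzmm, Nkg7 and Xcl1 were among the 8, and Klrd1 and Prf1 among the 4. S100a4 was in 0.302% and Cxcr3 in 0.0544% of TLH barcodes without leukocyte genes, below their shares in the members. The median mitochondrial share of members without Siglech was 3.59% to 4.16% in the TLH libraries, 15.1% in immune_DA and 10.5% in immune_LEW. No test was made between preparations, which differ in rats, enrichment and chemistry.

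**Figure D4:**
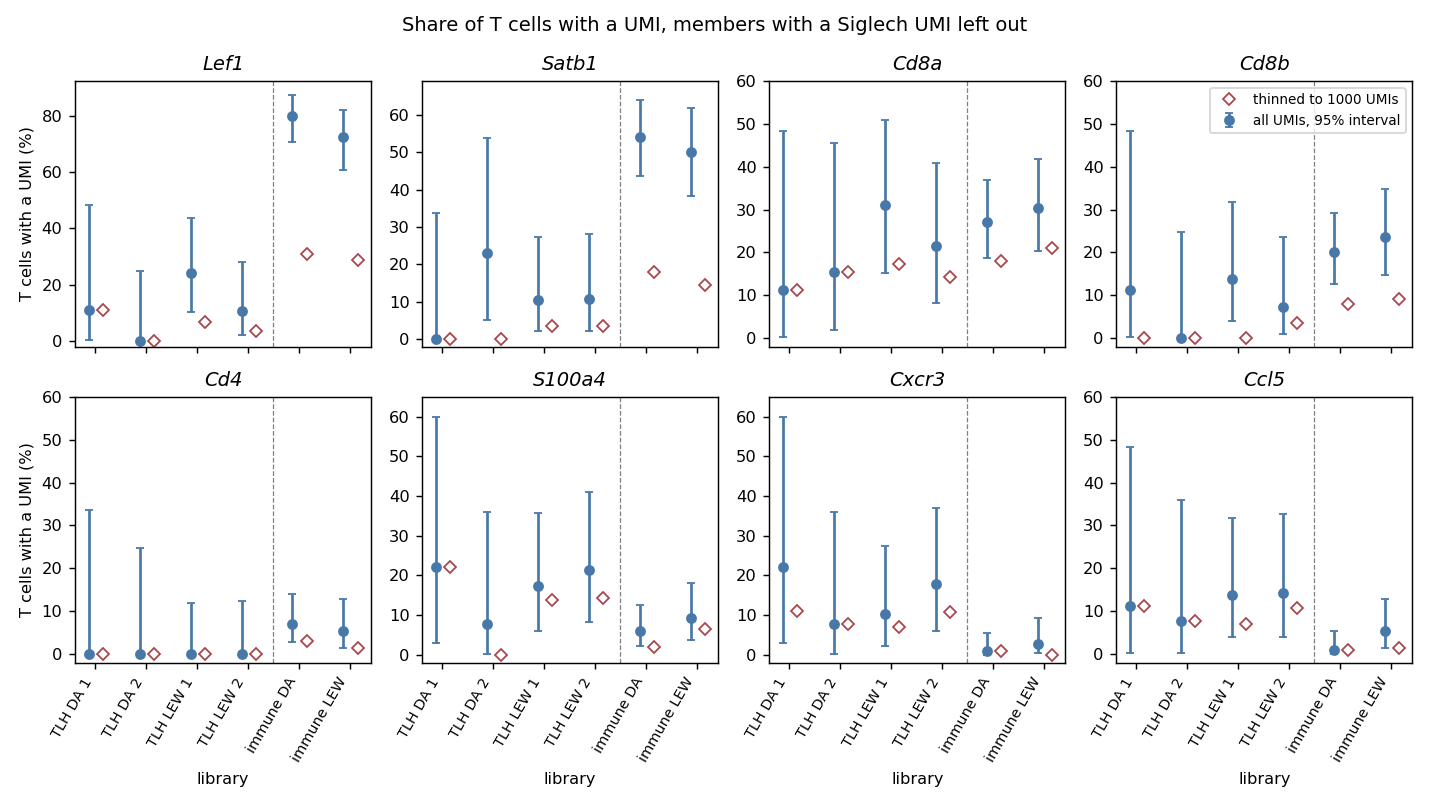
Percent of T cells with a UMI (y axis) in each library (x axis), members with Siglech left out, as counted (blue, with exact 95% intervals) and after thinning each cell to 1000 UMIs (red diamonds). Lef1 and Satb1 were highest in both immune-enriched libraries before and after thinning, and Cxcr3 and Ccl5 lay higher in all 4 TLH libraries than in immune_DA and immune_LEW. The thinned totals include hepatocyte transcripts.

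Between LEW and DA no gene passed in the CD3 cells. The fit used TLH_DA 2, both TLH_LEW and both immune-enriched libraries with preparation as a term, and left out TLH_DA 1, which held 9 CD3 cells. Of 1261 genes 0 (0%) passed in edgeR, 40 had an unadjusted p under 0.05, and DESeq2 called 2, LOC100360791 and Ugt2b. The smallest adjusted p, 0.192, belonged to LOC100360791, with 0 UMIs in TLH_DA 2 and immune_DA and 8, 9 and 204 in TLH_LEW 1, TLH_LEW 2 and immune_LEW. LEW CD3 cells thus held it in every library compared and DA CD3 cells in none. Without the Siglech-positive members 0 of 1124 genes passed in edgeR, and the smallest adjusted p, 0.192, belonged to RT1-Da, an MHC class II gene (-5.51 ± 0.60). LOC100360791 was not among the genes tested in that fit. The count depended on a single library, since 7 genes passed without TLH_LEW 1. Without TLH_DA 2 or immune_DA, and in TLH alone, 1 DA library remained. Without immune_LEW the preparation term took up immune_DA, so the strain difference again rested on 1 DA library. The counts of those fits are not given.

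Among immune genes, S100a4 had 18, 334 and 261 CPM in TLH_DA 2, TLH_LEW 1 and TLH_LEW 2, and 83 and 348 in immune_DA and immune_LEW. It was higher in LEW in both preparations, by 2.37 ± 0.45 (SE, edgeR adjusted p = 0.771), and did not pass. Of 8 MHC genes tested 0 passed in edgeR and 6 had an unadjusted p under 0.05, at a median log2 fold change of -1.49. The class I gene RT1-A2 stood at -2.27 ± 0.51 and RT1-A1 at 1.51 ± 0.40 (edgeR adjusted p = 0.771 and 0.911). Part of the members carried the MHC level of immune_DA, where the 10 genes made up 1.23% of all UMIs and 0.551% in the median cell, against 0.832% and 0.614% in immune_LEW. The 2 NK markers and the 1 erythroid marker tested were also lower in LEW without passing, at medians of -1.66 and -3.56. Medians were -1.24 for 2 endothelial and mesenchymal and -0.76 for 3 B cell markers. They were -0.63 for 2 Kupffer and myeloid and -0.30 for 2 dendritic-cell markers, and none of these passed. These medians include the Siglech-positive members. Without these members Tyrobp, of the NK list, stood at -2.55 ± 0.49, C1qa at -1.19 ± 0.57 and Lyz2 at -0.41 ± 0.56. Irf8, Ighm and Fcrla were not among the genes tested in that fit. Hepatocyte markers, given below, went the other way. RT1 genes are polymorphic between strains, and reads of 1 allele may count under a neighbouring gene, which was not tested. Cd74 differed by -2.0 ± 0.42 with and -4.60 ± 0.78 without the Siglech-positive members, and passed in neither fit (edgeR adjusted p = 0.771 and 0.545). Of the T cell genes, Lef1 stood at 0.34 ± 0.67, Lck at 0.56 ± 0.48, Satb1 at -0.38 ± 0.42 and Cd8a at 0.26 ± 0.36, none past the threshold. The 12 hepatocyte markers had a median of 1.09 higher in LEW, and their part in the other differences was not tested.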

How the data were processed

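Cells of 6 dissociated rat liver libraries were analysed. Per the labels and the study's methods, the authors aligned reads with Cell Ranger 3.1.0 to a custom rat reference and deposited UMI counts per gene and barcode, not normalized and before the study's cell filters. Nuclei and Visium sections (Space Ranger 1.1.0) were read for CD3 only. The 32883 rows carry no gene names, which were taken by position from the nuclei gene list (6 identical lists). Rows with 1 symbol were summed.

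Barcodes were kept at 2000 or more UMIs and up to 40% mitochondrial UMIs (TLH), or 1000 and 50% (immune-enriched). The stated TLH limits left 6623, 7112, 12124 and 7857 cells, which are the study's numbers for DA only, while 2000 UMIs and 40% left the study's numbers for LEW, 5457 and 3844. Doublets were not called. No kept barcode had identical counts in 2 libraries, and barcode sequences were not analysed here. UMIs were summed per library and class, with at least 10 cells per sum. Classes were fitted together (15 sums, 7 residual degrees of freedom). Sums were tested with edgeR 4.0.16 in R 4.3.3 (quasi-likelihood, TMM, filterByExpr, robust dispersion, Benjamini-Hochberg at 0.05); every adjusted p comes from it. Levels in CPM were computed on TMM-scaled totals of the deposited counts. Genes named are the 10 largest changes in each direction with the same sign in every library, and members of 19 gene lists. A few genes are not reported here by name, though counts over lists include them. Members and lists were chosen with earlier results of these data known. A fold against 0 UMIs uses a floor of 3 UMIs over the class. Intervals of shares are exact binomial 95% intervals for counting error.

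Alternatives were RLE size factors, DESeq2 1.42.0, no low-count filter, each library left out, CD3 at 3 or more, NK genes under 3, 1 preparation only, a replicate block, genes above their level in kept cells without leukocyte genes, thinning to 1000 UMIs and the study's cell filters. Leaving out Siglech-positive members, adding TLH_DA 1 and the CD4 against CD8 fits at smaller cell numbers were added after seeing the data. The edgeR steps were tested on simulated data.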

Additional observations from a re-analysis of the deposited data

Results flagged for a closer look

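The share of kept cells that were CD3 cells moved in opposite directions with strain in the 2 preparations. It was 0.379 percentage points higher in LEW than in DA in TLH (2 rats each) and differed by -6.27 points in the immune-enriched pair (1 rat each). The difference between these effects was not tested.

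CD3 was also counted in libraries that the comparisons did not use. A CD3 UMI was found in 5 of 5262 nuclei of nuclei_LEW 1 and 4 of 2501 of nuclei_LEW 2, and in 0 of 2205 of nuclei_DA 1 and 2 of 2557 of nuclei_DA 2. Free RNA was not measured in these libraries. In the Wistar sections, 31 of 2437 spots of the first and 37 of 2404 of the second held a CD3 UMI, and a spot can hold several cells.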

How the results depend on the processing

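Of the 469 and 307 genes called against NK and B cells, those that could be tested again kept their sign in the planned settings, and without the Siglech-positive members 7 and 1 changed sign, of which Irf8 passed. The 0 strain calls stayed at 0 with RLE factors, NK genes under 3, TLH_DA 1 included, Siglech-positive members left out and a replicate block (0 of 1643 tested). The replicate numbers share only a number (r = 0.0225 between TLH_DA 1 and TLH_LEW 1). The count was 2 with DESeq2, 14 without the low-count filter, 200 at 3 or more CD3 UMIs (which leaves no DA TLH library), 47 in TLH alone, 7 among genes above their level in cells without leukocyte genes, and 0 to 189 with 1 library left out. Against NK cells 258 genes passed with DESeq2 and 265 to 487 with 1 library left out, and against B cells 157 and 147 to 291. The other settings of these 2 comparisons stayed within 1.5 times. Thinning moved 10 shares: Lef1 to 6.67% in TLH_LEW 1, 28.4% in immune_DA and 26.5% in immune_LEW, Cd8a to 16.5% in immune_DA, Cd8b to 0% in TLH_DA 1 and TLH_LEW 1, 7.34% in immune_DA and 8.43% in immune_LEW, and Cd4 to 2.75% in immune_DA and 1.20% in immune_LEW. At the stated cell limits the TLH share differed by 0.159 points between strains (two-sided exact permutation p = 0.667), and by 0.375 (p = 0.333, exact) with these limits for DA and 2000 UMIs for LEW, a setting added after seeing the data. Over all settings named genes kept their call in 669 checks and did not pass in 44, 21 of these under DESeq2, which gave Siglec10 no adjusted p. Why these calls were lost was not tested. With 9 to 30 CD3 cells per TLH library, genes found in few cells there could not be compared.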

Other observations

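Among the gene groups not described above, few genes were called. Over all 4537 genes tested 5.62% were higher and 4.72% lower in CD3 cells than in NK cells. Against B cells these shares were 3.64% and 3.13%. Counts of 0 or 1 in the short lists below are therefore not read as results about the lists. The dissociation response came first. Of 11 tested genes 1 was higher in CD3 cells than in NK cells, the growth-arrest gene Btg2, by 1.70 ± 0.27 (SE, edgeR adjusted p = 8.61e-06), and none passed against B cells. Of 8 cell cycle genes Top2a was lower than in NK cells and none passed against B cells. Stmn1 passed against B cells as higher once the Siglech-positive members were left out. The cell cycle list, of 10 genes, made up 0.276% and 0.132% of the CD3 cells' UMIs in TLH_DA 1 and TLH_LEW 1, against 0.109% and 0.0242% in their NK cells, and 0.0178%, 0.0204%, 0.0521% and 0.0743% in the other libraries, each below its NK cells. Any gene of the list was held by 5 of 9 and 12 of 30 CD3 cells in TLH_DA 1 and TLH_LEW 1, and the median cell stood at 0.0499% and 0%. In TLH_DA 1, 12 of 27 NK cells held any gene of the list, with the median NK cell at 0. At equal depth 7 of the 10 genes were found in a larger share of TLH members, and all 10 in a larger share of immune-enriched NK cells. Rgcc, a regulator of the cell cycle chosen after its values were seen, was in 40.3% of immune-enriched members without Siglech and 3.52% of NK cells. Of 12 Kupffer and myeloid markers Lyz2 was higher in CD3 cells than in NK cells, by 3.62 ± 0.64 (SE, edgeR adjusted p = 0.00246), and the list made up 0.0179% to 0.0709% of the CD3 cells' UMIs per library. Few cells carried these values: Lyz2 had 99 UMIs in 7 of 109 members in immune_DA and 69 in 5 of 83 in immune_LEW, and 11 of 109 and 22 of 83 held any gene of the list. Of 3 dendritic-cell markers tested against B cells 2 were higher in CD3 cells, Clec10a and Siglech. Clec10a had 42 UMIs in CD3 cells and 0 in B cells. Without the Siglech-positive members 2 of these markers were tested, Clec10a staying higher and Irf8 passing as lower. Doublets were not called, and their part was not tested.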
